A study of Mus musculus with 11 samples.

Results

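The genes described here are the measured members of the Hox, Sox, Fox, Tbx, Gata and Klf families, which encode DNA-binding proteins that direct the building and upkeep of tissues. They were chosen by name alone: a gene symbol had to start with 1 of 9 family prefixes, followed by the letter or number of a family member. The rule found 36 of the 7114 named genes on the array, with 11 Fox, 7 Klf, 6 Sox, 5 Gata, 4 Hox and 3 Tbx genes, while the other 3 prefixes, those of the paired box, sine oculis and hepatocyte nuclear factor families, had 0 members. A further 6 symbols that share a prefix but name no family member (Foxred1, Gatad1, Gatad2a, Gatad2b, Paxip1 and Paxx) were left out. The members were measured by 47 probes, and all 36 had a value on each of the 11 arrays.

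Hox proteins are homeodomain factors that give cells their position along the body axis. Gata factors are zinc finger proteins, of which Gata1, Gata2 and Gata3 act in blood and Gata4 and Gata6 in heart, gut and lung, and the T-box protein Tbx20 works with Gata4 in heart muscle. Sox proteins bend DNA through an HMG domain, Fox proteins bind it through a winged helix, and Klf proteins bind GC-rich boxes through zinc fingers.

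RNA of 11 mouse samples was hybridised on 2-colour arrays, 1 array per sample, with the sample's own RNA in Cy3 and a mouse embryo RNA in Cy5 as the reference shared by all. The samples were the lines D6_MEL, NRAS_MEL, HRAS_MEL, Melan A, 3T3, VA_MEF and VA_475, and the organs Heart, Kidney, Liver and Lung; the title of the series names RAS isoforms in melanocytes as its subject. Neither genotype, strain, age nor treatment was used here beyond these names. There was no replicate array and no swap of dyes, so the error given below is the SD between the probes of a gene, where it had several, and it covers no difference between cultures or animals. MEL was read as melanocyte, and the cell type of VA_475 is unknown here.

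Values are log2 ratios of own RNA over embryo reference. The sign of the deposited values was turned, a direction that is likely but not stated, taken from organ marker genes; the titles name the sample first and the reference last, and if the table followed that order, all signs given here would be the opposite. A ratio of 0 therefore means the level in whole embryos, and whether a low ratio reflects fewer cells of a type or less RNA per cell cannot be told apart. Marker genes went against several labels. The 3 measured liver markers (of 14 listed) had a median of 2.54 on the array labelled Lung and at most -4.65 elsewhere, and the 3 lung markers (of 10) had 5.75 on the array labelled Liver and at most -0.54 elsewhere. The 2 heart markers (of 14) had 3.77 on the array labelled Melan A and at most 0.22 elsewhere, whereas the 2 kidney markers (of 14) were highest, at 5.03, on the array labelled Kidney. The array labelled Heart correlated with D6_MEL across genes at r = 0.917, while the least similar pair of arrays had r = 0.110. Of 17 melanocyte markers only 6 were measured, and their medians did not set the MEL arrays apart: -0.41 on D6_MEL, -0.52 on NRAS_MEL and -0.90 on HRAS_MEL, against 0.39 on VA_MEF and 0.29 on the array labelled Liver. Their members disagreed, since Mlph was 2.36 to 3.18 on the MEL arrays and 3.06 on VA_MEF, where Rab38 was 3.40, while Ednrb was -2.98 to -2.41 and -3.48 on the same arrays. The fibroblast list (9 of 15 measured) had a median of -2.49 on VA_MEF against -0.57 on 3T3. Each array is therefore named by its label only, and no array was moved to another group.

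Promoter windows are shown for 4 members, since Klf and Gata proteins read short motifs in such windows: Hoxb8, Klf4 and Tbx20 had the widest range of ratios in their families, and Klf9 was among the largest differences of HRAS_MEL from D6_MEL. Each holds the 250 bases before the start of the gene on its own strand, 5′ to 3′, from RefSeq's annotation of GRCm38.p6, and a window was found for 27 of the 36 members. Capitals mark the CACCC box (CACCC or GGGTG), the GC box (GGGCGG or CCGCCC) and the Gata core (GATAA or TTATC), searched on both strands. Hoxb8 lies at chr11:96281655-96281904 on the plus strand, Klf4 at chr4:55532476-55532725 on the minus strand, Klf9 at chr19:23140976-23141225 on the plus strand and Tbx20 at chr9:24774304-24774553 on the minus strand.
Hoxb8: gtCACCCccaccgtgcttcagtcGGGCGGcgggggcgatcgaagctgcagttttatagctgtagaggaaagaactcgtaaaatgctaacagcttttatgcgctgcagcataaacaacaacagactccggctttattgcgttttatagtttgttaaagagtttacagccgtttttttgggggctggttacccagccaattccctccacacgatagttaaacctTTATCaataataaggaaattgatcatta
Klf4: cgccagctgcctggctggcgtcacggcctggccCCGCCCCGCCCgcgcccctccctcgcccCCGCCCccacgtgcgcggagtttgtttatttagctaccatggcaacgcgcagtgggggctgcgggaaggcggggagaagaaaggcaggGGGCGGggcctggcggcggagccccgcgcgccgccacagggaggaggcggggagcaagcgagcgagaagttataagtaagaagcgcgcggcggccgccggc
Klf9: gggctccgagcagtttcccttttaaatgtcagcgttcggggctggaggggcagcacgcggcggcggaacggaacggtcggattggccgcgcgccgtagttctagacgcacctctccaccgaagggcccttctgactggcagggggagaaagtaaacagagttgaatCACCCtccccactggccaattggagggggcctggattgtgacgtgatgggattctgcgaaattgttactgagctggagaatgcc
Tbx20: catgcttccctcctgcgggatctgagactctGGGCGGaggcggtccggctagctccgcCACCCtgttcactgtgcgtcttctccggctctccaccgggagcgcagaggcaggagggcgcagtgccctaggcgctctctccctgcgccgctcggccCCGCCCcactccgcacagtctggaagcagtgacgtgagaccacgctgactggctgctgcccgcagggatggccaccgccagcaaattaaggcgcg
The Hoxb8 window held 1 CACCC box, 1 GC box and 1 Gata core, the Klf4 window 4 GC boxes (a pair of them overlapping), the Klf9 window 1 CACCC box and the Tbx20 window 1 CACCC box and 2 GC boxes. A GC box was found for 20 of the 27 members with a window (74.1%) and in 32.7% of 32851 windows of all genes. A member was counted once if any of its windows held the motif, whereas the share over all genes counts single windows. The member shares can therefore be higher for that reason alone, for each of the motifs. The first window of each member was also richer in G and C, with a median of 62.8% against 52.4% over all windows. The part of base composition in the GC box share was not tested. The CACCC box occurred in 17 of 27 (63.0%) against 52.0%, and the Gata core in 4 of 27 (14.8%) against 22.6%. Within the families, a GC box was found for 5 of 6 Klf genes, a CACCC box for 3 of 6, and a Gata core for 0 of 3 Gata genes. These matches describe the letters of the windows and no binding.

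Across the 11 arrays the members had a median range of 1.69 (highest minus lowest log2 ratio), compared with 1.54 for the 7035 genes with a value on every array. A range of at least 4-fold was seen in 16 of 36 members (44.4%) and in 33.1% of all genes. The widest families were Tbx, with a median range of 3.34, and Gata, with 2.57. Sox and Klf both had 1.69, Fox had 1.49 and Hox had 1.23. The array labelled Liver was the highest of the 11 for 8 members and the lowest for 0, while it was highest for 10.8% of all genes and lowest for 6.79%. VA_MEF was the lowest array for 8 members, against 14.4% of all genes, and HRAS_MEL the highest for 6, against 6.10%.

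**Figure D1:**
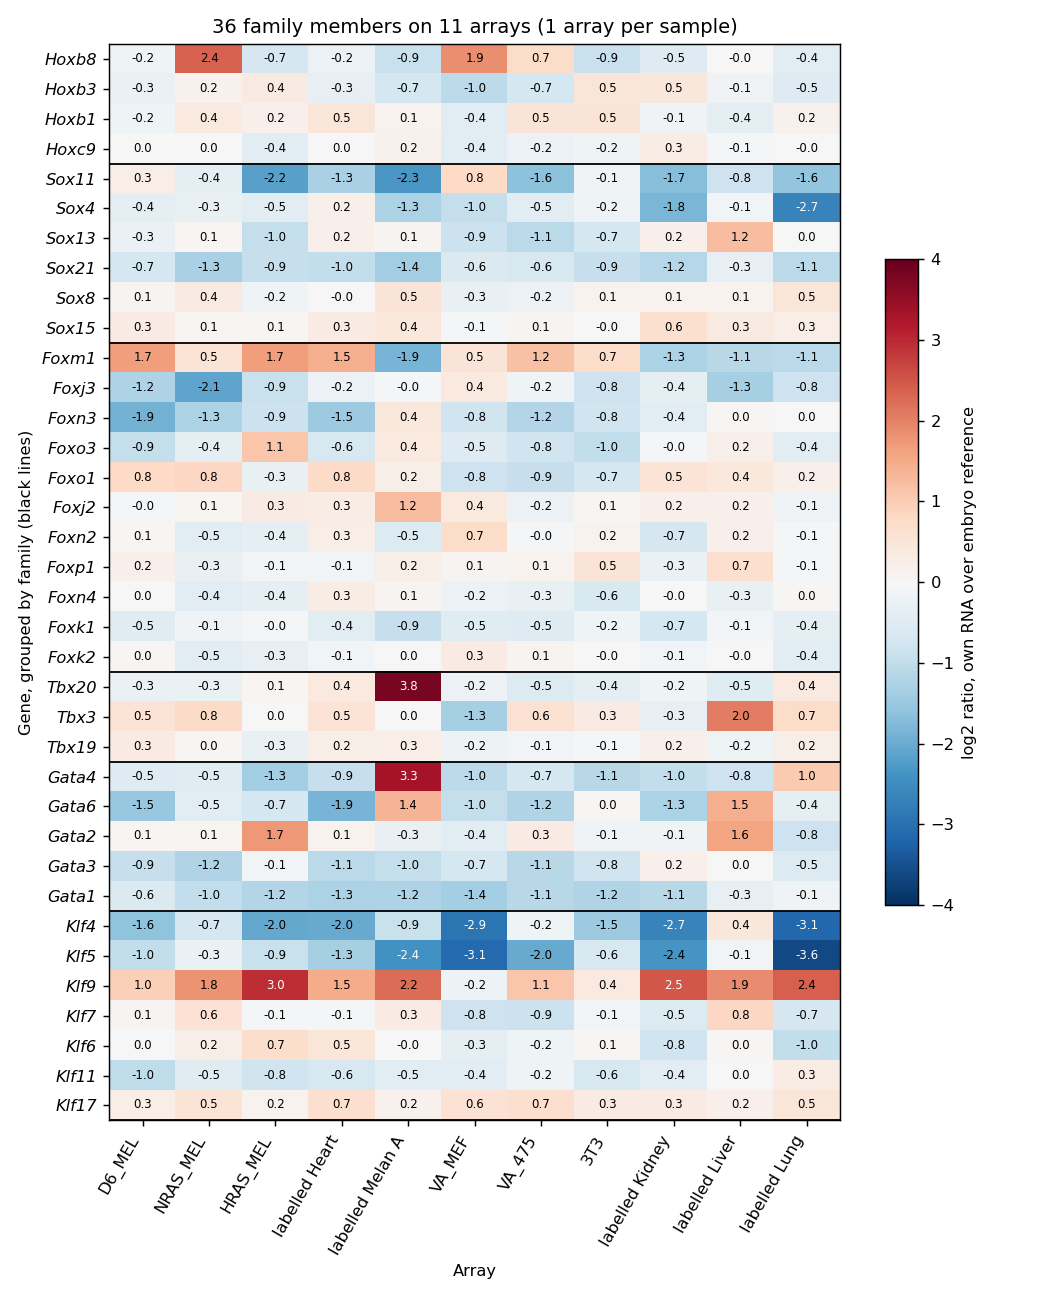
Log2 ratio over embryo reference (colour and printed value) of the 36 members (rows, grouped by family between black lines) on the 11 arrays (columns, 1 per sample). Tbx20 at 3.79 and Gata4 at 3.33 on the array labelled Melan A are the highest values, and Klf5 at -3.62 on the array labelled Lung is the lowest.

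Among the Gata genes, the heart and endoderm factor Gata4 (1 probe) stood at 3.33 on the array labelled Melan A and at 1.05 on the array labelled Lung. Its ratio was -0.51 on D6_MEL, -0.48 on NRAS_MEL, -1.35 on HRAS_MEL, -0.92 on the array labelled Heart, -1.03 on VA_MEF, -0.72 on VA_475, -1.11 on 3T3, -0.98 on Kidney and -0.84 on the array labelled Liver. It was thus above the embryo reference only on the arrays that carried the heart and the liver markers. Gata6, which acts beside Gata4 in heart and in lung epithelium, read 1.47 on the array labelled Liver and 1.37 on that labelled Melan A. On the remaining arrays it was -1.53 for D6_MEL, -0.45 for NRAS_MEL, -0.71 for HRAS_MEL, -1.87 for Heart, -0.96 for VA_MEF, -1.19 for VA_475, 0.03 for 3T3, -1.26 for Kidney and -0.37 for Lung. Its 3 probes disagreed, with a median SD of 0.48 and an SD of 1.30 on NRAS_MEL, and 1 of them had no value on some arrays. From the 2 probes with values everywhere, Gata6 was 1.79 on the array labelled Melan A and -1.18 on NRAS_MEL, so that the order of the 2 highest arrays turned. These levels stand beside the lung markers on the array labelled Liver and the heart markers on that labelled Melan A, and the part of those cells was not tested.

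Gata2, a factor of blood stem cells and endothelium, was highest on HRAS_MEL at 1.74 (SD 0.57 between 2 probes) and on the array labelled Liver at 1.57 (SD 0.73), 2 values closer to each other than their probes. All other arrays lay between -0.82 (labelled Lung) and 0.33 (VA_475). The 4 endothelial markers measured (of 11) had a median of 1.999 on the array labelled Liver but -1.66 on HRAS_MEL, so on HRAS_MEL the Gata2 ratio was high with endothelial markers low. Gata3, needed for T cells and the kidney duct, ran from -1.19 on NRAS_MEL over a median of -0.79 to 0.20 on Kidney. Gata1, the erythroid factor, stayed below the reference on every array, from -1.37 on VA_MEF to -0.14 on the array labelled Lung, with a median of -1.12. The erythroid list (3 of 8 measured) was below the reference on every array too, with medians from -5.67 to -0.33.

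In the T-box family, Tbx20 (1 probe) was at 3.79 on the array labelled Melan A, 3.40 above the next array. Its other 10 values were confined to the interval from -0.55 on VA_475 to 0.39 on the array labelled Lung, and the array labelled Heart read 0.38. Tbx3, a repressor that acts in limb, mammary gland and lung, was 2.03 on the array labelled Liver and next highest, 0.78, on NRAS_MEL. It was lowest on VA_MEF at -1.31, and the other arrays fell between -0.32 (Kidney) and 0.73 (labelled Lung). Tbx19, a regulator of pituitary corticotrope cells, varied little, from -0.28 on HRAS_MEL to 0.33 on D6_MEL with a median of 0.05.

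**Figure D2:**
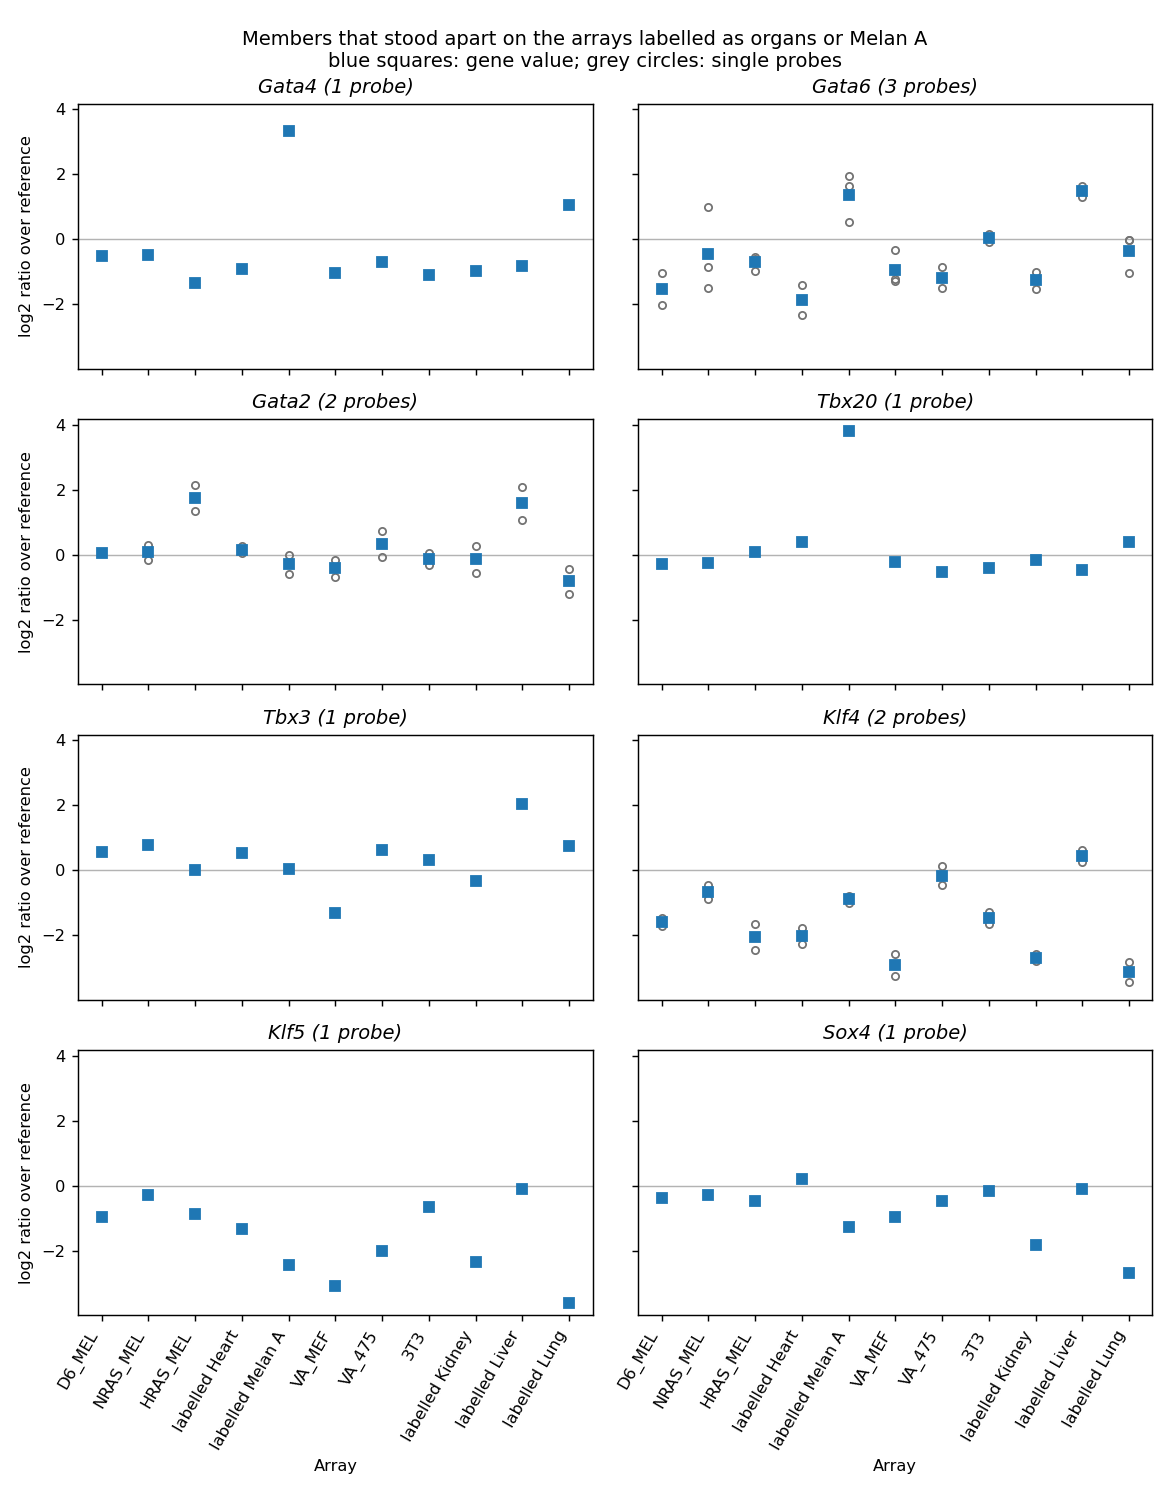
Log2 ratio over reference (vertical axis) of 8 members on each of the 11 arrays (horizontal axis), with the gene value as a blue square and its single probes as grey circles where there are several. Gata4 and Tbx20 peak on the array labelled Melan A, Tbx3, Klf4 and Klf5 are highest on that labelled Liver, and Klf4, Klf5 and Sox4 are lowest on that labelled Lung.

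Klf4 and Klf5 shared the highest array and the 2 lowest. Klf4, a factor of epithelial barrier and pluripotent cells (2 probes, median SD 0.31), was 0.44 on the array labelled Liver and below the reference on the other 10. It read -0.17 on VA_475, -0.67 on NRAS_MEL, -0.90 on the array labelled Melan A, -1.46 on 3T3, -1.60 on D6_MEL, -2.02 on that labelled Heart, -2.05 on HRAS_MEL, -2.69 on Kidney, -2.91 on VA_MEF and -3.13 on that labelled Lung. Several neighbours in this order differed by less than the median SD between probes: NRAS_MEL and the Melan A label, 3T3 and D6_MEL, the Heart label and HRAS_MEL, and each adjacent pair among the 3 lowest. Klf5, which promotes growth of epithelium and smooth muscle (1 probe), was likewise highest on the array labelled Liver (-0.10), with NRAS_MEL at -0.28, 3T3 at -0.64, HRAS_MEL at -0.89, D6_MEL at -0.98 and Heart at -1.34. It was -2.01 on VA_475, -2.36 on Kidney, -2.43 on that labelled Melan A, -3.10 on VA_MEF and -3.62 on the array labelled Lung. The array labelled Liver was thus the top of both genes, and that labelled Lung and VA_MEF the bottom. VA_475 was placed differently, second highest for Klf4 and well below 3T3 for Klf5.

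Klf9, a factor induced by glucocorticoid and thyroid hormone, was above the reference on 10 of the 11 arrays. It was 2.96 on HRAS_MEL, 2.48 on Kidney, 2.38 on the array labelled Lung, 2.25 on that labelled Melan A, 1.88 on that labelled Liver, 1.80 on NRAS_MEL, 1.47 on that labelled Heart, 1.11 on VA_475, 0.96 on D6_MEL, 0.40 on 3T3 and -0.20 on VA_MEF. Among the MEL arrays it was highest on HRAS_MEL, and its 2 lowest values were those of the fibroblast-labelled arrays. Klf7, a factor of neurons and fat cells, ran from -0.86 on VA_475 over a median of -0.06 to 0.83 on the array labelled Liver. Klf6, an immediate response gene of injured tissue, ran from -0.99 on the array labelled Lung over 0.02 to 0.70 on HRAS_MEL, where its 2 probes had an SD of 0.93. Klf17, of the early embryo, had the narrowest range of all members, 0.15 to 0.67, but as the mean of 2 probes that disagreed. They ran from 0.28 to 1.25 and from -0.27 to 0.42, and their SD was 0.85 on NRAS_MEL and 0.81 on VA_475.

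Within the Sox family, Sox11, a factor of neural progenitors and embryonic tissue (1 probe), was 0.78 on VA_MEF and 0.27 on D6_MEL, and below the reference on the other 9 arrays. It was -0.13 on 3T3, -0.40 on NRAS_MEL, -0.84 on the array labelled Liver, -1.30 on that labelled Heart, -1.59 on that labelled Lung, -1.63 on VA_475, -1.69 on Kidney, -2.16 on HRAS_MEL and -2.32 on that labelled Melan A. D6_MEL and HRAS_MEL were therefore near opposite ends of its order. Its close relative Sox4, which acts in progenitors of many tissues, was lowest on the array labelled Lung (-2.68) and on Kidney (-1.82), with a median of -0.46 and a highest value of 0.19 on that labelled Heart. Sox13, a SoxD factor of T cells and cartilage, reached 1.23 on the array labelled Liver, while the other arrays lay between -1.09 (VA_475) and 0.20. Sox21, which acts in neural and epithelial progenitors, was below the reference on all 11 arrays, from -1.38 to -0.32, and Sox8, a SoxE factor of neural crest and testis, stayed between -0.28 and 0.51.

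Of the Hox genes only Hoxb8, a trunk Hox gene that also acts in myeloid progenitors, had a range above 4-fold. Its single probe read 2.35 on NRAS_MEL, 1.85 on VA_MEF and 0.74 on VA_475. No other array was above 0: D6_MEL read -0.18, HRAS_MEL -0.67, Heart -0.25, Melan A -0.89, 3T3 -0.88, Kidney -0.52 and Lung -0.44, with the array labelled Liver at about 0. The other members were flatter: Hoxb3, a hindbrain gene, spanned -1.04 (VA_MEF) to 0.47 (3T3), Hoxb1, which specifies a segment of the hindbrain, -0.44 (VA_MEF) to 0.51 (VA_475), and Hoxc9, a gene of the thoracic spinal cord, -0.44 (VA_MEF) to 0.31 (Kidney). VA_MEF was the lowest array for these 3 and the second highest for Hoxb8.

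In the Fox family, Foxm1, which drives the genes of mitosis (1 probe), split the arrays by sign. It was 1.68 on HRAS_MEL, 1.67 on D6_MEL, 1.47 on the array labelled Heart, 1.18 on VA_475, 0.75 on 3T3, 0.55 on NRAS_MEL and 0.51 on VA_MEF. It was -1.08 on the array labelled Lung, -1.11 on that labelled Liver, -1.28 on Kidney and -1.87 on that labelled Melan A. The list medians of the 15 proliferation markers measured (of 18) split the same arrays, with -0.72 to 0.20 on the first 7 and -1.86 to -1.43 on the other 4. Not every marker did: Mcm5 was 0.01 on Kidney, and Mki67 was -1.83 on VA_475 but -1.43 on the array labelled Liver. Foxo3, a factor restrained by AKT that acts in stress and quiescence (1 probe), stood at 1.12 on HRAS_MEL, with the next highest, 0.39, on the array labelled Melan A, and was lowest on 3T3 at -0.99. Foxo1, its relative in insulin signalling, was lowest on HRAS_MEL among the MEL arrays only. It was -0.31 there against 0.80 on D6_MEL and 0.83 on NRAS_MEL (SD 0.09, 0.23 and 0.04 between 2 probes). It was lower still on VA_475 (-0.93), VA_MEF (-0.82) and 3T3 (-0.72). Foxj3, which acts in muscle and testis, was lowest on NRAS_MEL at -2.12, had a median of -0.82 and was highest on VA_MEF at 0.39. Foxn3, known as a checkpoint suppressor, ran from -1.90 on D6_MEL over -0.80 to 0.41 on the array labelled Melan A.

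The lines named for RAS isoforms were set against D6_MEL and against each other. In the cell type given by the sample descriptions, D6_MEL and NRAS_MEL share a code that HRAS_MEL does not carry. Differences of HRAS_MEL from either line cannot be told apart from a difference between cells of another code. Each comparison is of 2 arrays, without a test, and counts genes at least 2-fold apart (a log2 difference of 1 or more). The differences from D6_MEL share that array, so they are given side by side only. NRAS_MEL exceeded D6_MEL 2-fold for 2 of 36 members, Hoxb8 by 2.54 and Gata6 by 1.07, where 2.46% of all genes did. It was lower for 1, Foxm1 at -1.12, where 4.4% of genes were. The Gata6 difference was carried by 1 probe (SD 1.24 over 3 probes) and was 0.36 from the 2 probes with values on every array.

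HRAS_MEL exceeded D6_MEL 2-fold for 4 members, where 5.23% of all genes did: Foxo3 by 2.05, Klf9 by 2.004, Gata2 by 1.68 (SD 0.55 over 2 probes) and Foxn3 by 1.02 (SD 0.09). It was lower for Sox11, at -2.43, and Foxo1, at -1.11 (SD 0.32), where 5.91% of genes were. For the same 6 genes NRAS_MEL differed from D6_MEL by 0.54, 0.84, 0.01, 0.64, -0.67 and 0.02 in that order. Directly compared, NRAS_MEL was above HRAS_MEL for 5 members (4.27% of all genes): Hoxb8 by 3.03, Sox11 by 1.76, Klf4 by 1.38, Foxo1 by 1.13 and Sox13 by 1.04. It was below for 6 (5.08% of all genes), with Gata2 at -1.67, Foxo3 at -1.51, Foxj3 at -1.24, Klf9 at -1.16, Foxm1 at -1.13 and Gata3 at -1.07. Hence 11 of 36 members differed 2-fold between the RAS-named arrays, with a median over the members of 0.09 beside 0.02 over all genes.

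**Figure D3:**
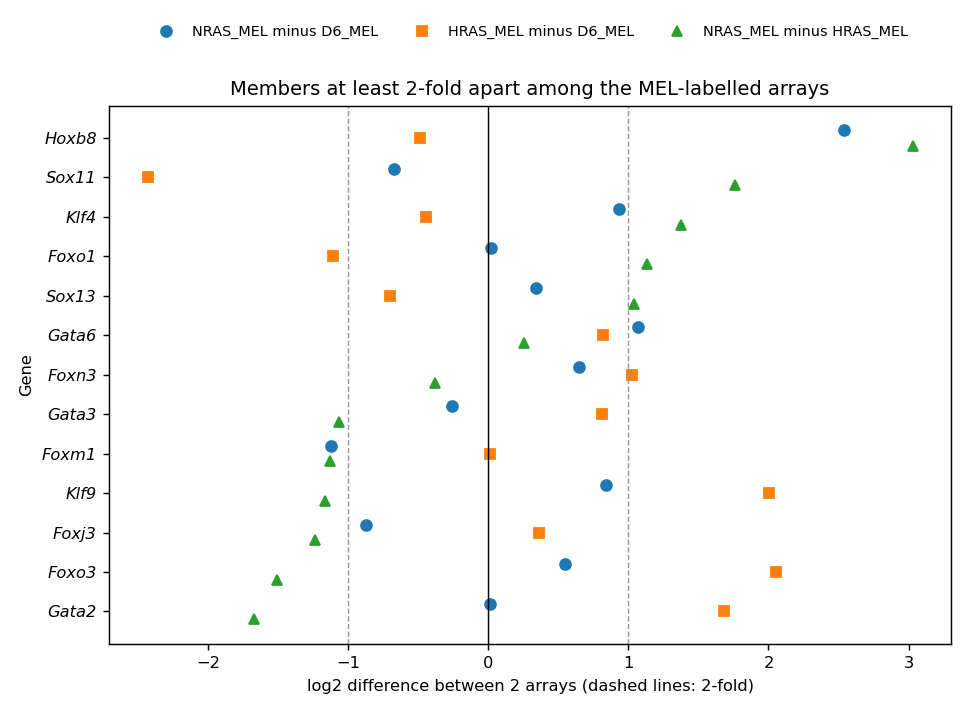
Log2 difference between 2 arrays (horizontal axis, dashed lines at 2-fold) for the 13 members at least 2-fold apart among the MEL-labelled arrays (vertical axis), with blue circles for NRAS_MEL minus D6_MEL, orange squares for HRAS_MEL minus D6_MEL and green triangles for NRAS_MEL minus HRAS_MEL. Hoxb8 is to the right in both differences of NRAS_MEL (2.54 and 3.03), and Foxo3, Klf9 and Gata2 are to the right in HRAS_MEL minus D6_MEL.

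Both VA lines were set against 3T3, an established fibroblast line, whose array the 2 comparisons share. VA_475 exceeded 3T3 for Hoxb8 by 1.62 and Klf4 by 1.30 (SD 0.16 over 2 probes), 2 of 36 members where 3.18% of all genes did. It was lower for 4, where 4.04% of genes were: Sox11 at -1.50, Klf5 at -1.36, Gata6 at -1.23 (SD 0.64) and Hoxb3 at -1.17. VA_MEF exceeded 3T3 for Hoxb8 by 2.73 and Foxj3 by 1.22, where 5.87% of all genes did. Lower there were Klf5 at -2.46, Tbx3 at -1.64, Hoxb3 at -1.51 and Klf4 at -1.44 (SD 0.22), where 7.89% of genes were. Klf4 lay on opposite sides of 3T3 in the 2 lines, and its VA_MEF difference became -0.78 after quantile normalization.

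The array labelled Heart differed little from D6_MEL in these families, as it did over all genes. Foxj3 was higher by 1.001, where 0.862% of all genes were 2-fold higher, and Sox11 was lower, at -1.57, where 1.23% were 2-fold lower. Foxj3 is the member closest beyond the 2-fold limit in any comparison, and Gata6 at -0.99 in VA_MEF minus 3T3 is the closest within it. That Gata6 value sets 3 probes on VA_MEF against 2 on 3T3; on the 2 probes both arrays share it was -1.30 (SD 0.13), past the limit, and 7 rather than 6 members were then 2-fold apart between VA_MEF and 3T3. The other 34 members were within 2-fold of each other, Gata4 (-0.92 and -0.51) and Tbx20 (0.38 and -0.27) among them.

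Organ-labelled arrays were compared each with the mean of the other 2, leaving out the array labelled Heart, so these 3 comparisons share all their arrays. The array labelled Liver, which carried the lung markers, exceeded the mean of Kidney and Lung for 8 of 36 members, where 10.1% of all genes did. These were Klf4 by 3.35 (SD 0.02 over 2 probes), Klf5 by 2.89, Gata6 by 2.28, Sox4 by 2.13, Gata2 by 2.06 (SD 0.17), Tbx3 by 1.83, Klf7 by 1.44 (SD 0.15) and Sox13 by 1.12. From the 2 Gata6 probes with values on all 3 arrays, the Gata6 difference was 2.11 (SD 0.44). The array labelled Liver was 2-fold lower for 0 members, where 8.79% of genes were. The median difference over the members was 0.26, beside 0.02 over all genes. The list medians of endothelial markers (1.999 against 0.14 on Kidney and -0.68 on that labelled Lung) and erythroid markers (-0.33 against -2.30 and -2.75) were higher on the same array. Not every marker was: endothelial Emcn was 0.86 there against 1.74 on Kidney, and erythroid Slc4a1 -1.50 against -0.63. The part of these cells was not tested.

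The array labelled Lung, which carried the liver markers, exceeded the mean of Kidney and Liver for 1 member, Gata4 by 1.96, where 7.06% of all genes did. Lower were Klf5 at -2.39, Klf4 at -2.01 (SD 0.21), Sox4 at -1.71 and Gata2 at -1.54 (SD 0.12), where 8.32% of genes were. Kidney exceeded the mean of Liver and Lung for 0 members, where 6.25% of all genes did. It was lower for Gata6 at -1.81, Tbx3 at -1.71, Klf4 at -1.34 (SD 0.19) and Gata4 at -1.08, where 5.46% of genes were. From the 2 Gata6 probes with values on all of these arrays, the Gata6 difference was -1.98 (SD 0.51). Over all 9 comparisons, 19 of 36 members were 2-fold apart at least once, where 43.7% of all genes were, and 17 never, Tbx20 among the latter because the array labelled Melan A enters none of them.

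The 3 MEL lines were then tested against the arrays labelled Kidney, Liver and Lung with limma. Lines and organs stood in for replicates, so the p-values measure the spread between different lines and organs. D6_MEL and NRAS_MEL share a cell code, so these 2 lines may not be independent, and the test took no account of that. Foxm1 was higher in the MEL lines, 1.30 ± 0.65 (SD, n = 3) against -1.16 ± 0.11 (SD, n = 3), in 3 of 3 lines. The difference was 2.46 (SE 0.35), with a limma p-value of 0.0358 after Benjamini-Hochberg adjustment over 7086 genes. It was the 1 member called of 36, while 0.734% of genes were called higher and 0.579% lower. Its call was lost without HRAS_MEL (limma adjusted p = 0.102), D6_MEL (0.174), NRAS_MEL (0.0868), Kidney (0.0944) or Lung (0.0571), and with the array labelled Heart added to the organs (0.571) or that and the array labelled Melan A added to their labelled classes (0.960), over a range of alternatives from 0.0236 to 0.960. The difference stayed positive in all of these, from 1.01 to 2.83. The list medians of proliferation markers moved with it, at -0.72 to 0.08 on the MEL arrays and -1.86 to -1.43 on the organ arrays. Not every marker did, since Mcm5 was 0.01 on Kidney and -0.84 to -0.19 on the MEL arrays. The part of these markers in the Foxm1 difference was not tested.

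No other member passed. The next smallest p-values belonged to Foxn3, at -1.34 ± 0.52 in the MEL lines and -0.13 ± 0.26 in the organs (SD, n = 3 each; difference -1.21, limma adjusted p = 0.123), and to Klf11, a factor downstream of TGF-beta, with a difference of -0.74 (limma adjusted p = 0.204). Klf6 differed by 0.90 (0.213) and Sox13 by -0.86 (0.297), by the same adjusted limma test. The 2 classes did not overlap for 3 members (8.33%), Foxm1, Foxn3 and Klf11, where 27.1% of all genes did not overlap. The median difference was -0.06 over the members and -0.03 over all genes. Without the array labelled Liver, 3 members were called (Foxm1, Klf5 and Sox4), and the count over all genes, 93, became 659; it was 27 without HRAS_MEL, 0 without D6_MEL, 0 without NRAS_MEL (1018 and 912 at an unadjusted limma p under 0.05) and 23 without Kidney.

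**Figure D4:**
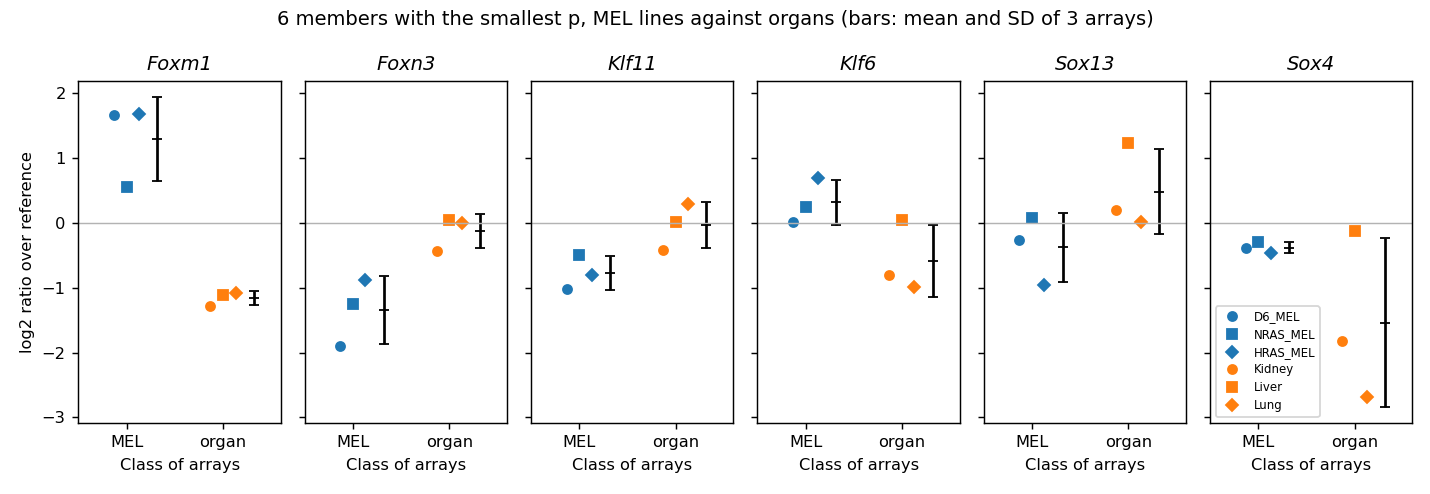
Log2 ratio over reference (vertical axis) of the 6 members with the smallest p in 3 MEL lines (blue) and 3 organ-labelled arrays (orange), with 1 point per array and bars for the mean and SD of 3 arrays. The Foxm1 points lie between 0.55 and 1.68 in the MEL lines and between -1.28 and -1.08 in the organs; the classes also do not overlap for Foxn3 and Klf11.

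Genes that work with these families were described from 9 lists, of which 50 of 111 genes were measured. Of the 4 measured partners of Tbx and Gata proteins in heart (11 listed), the median was 1.58 on the array labelled Melan A, where Gata4 and Tbx20 were highest, and at most -0.04 elsewhere. Nfatc4, a calcineurin-regulated factor, was 3.06 there, whereas Hand1, a factor of heart chambers, was -1.85. Nfatc4 was not high on that array only, as it read 2.19 on Kidney and 1.43 on the array labelled Lung. On the array labelled Lung, where Gata4 was the second highest, the 3 liver regulators measured (of 14) had a median of 1.15 and at most 0.02 elsewhere, with the nuclear receptor Nr5a2 2.78 above the mean of Kidney and Liver. The third of them, Nr0b2, a nuclear receptor without a DNA-binding domain, went the other way, with its lowest value of the 11 arrays, -1.05, on that array. Eya2, a cofactor of sine oculis homeobox proteins, was 2.17 on the array labelled Liver; the other measured gene of the 6 on its list, Dach1, was -0.05 there and highest, at 0.94, on that labelled Melan A. Sgk1, a kinase that restrains Foxo proteins, exceeded D6_MEL by 2.25 on HRAS_MEL, where Foxo3 was also higher. The 2 genes did not go together everywhere, as Sgk1 was highest on VA_475, at 2.24, where Foxo3 was -0.81. In VA_MEF minus 3T3, Sgk1 was at -3.85.

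Single genes of the remaining lists varied widely, as Id2 did from -3.26 on NRAS_MEL to 1.67 on Kidney. The medians of these lists reached less than those above. Their highest medians were 0.37 on VA_MEF for 9 of 12 Hox cofactors, 0.35 on VA_MEF for 13 of 18 Polycomb and trithorax genes, 0.40 on HRAS_MEL for 9 of 10 Fox partners, 0.10 on the array labelled Liver for 3 of 8 Sp genes, 0.13 on VA_MEF for 1 of 7 Gata cofactors and 0.75 on that labelled Liver for 6 of 25 neural crest regulators. Of the 50 partners, 2 were 2-fold higher and 3 lower in NRAS_MEL minus D6_MEL, where 2.46% and 4.4% of all genes were. The counts were 2 and 2 in HRAS_MEL minus D6_MEL (5.23% and 5.91% of all genes) and 0 and 4 in NRAS_MEL minus HRAS_MEL (4.27% and 5.08%). Against 3T3 they were 1 and 0 for VA_475 (3.18% and 4.04%) and 4 and 4 for VA_MEF (5.87% and 7.89%), and the array labelled Heart minus D6_MEL gave 0 and 2 (0.862% and 1.23%). Among the organ labels they were 1 and 4 for Kidney (6.25% and 5.46%), 7 and 3 for Liver (10.1% and 8.79%) and 1 and 6 for Lung (7.06% and 8.32%). With 50 genes, each of these counts rests on 7 partners or fewer. By limma, 0 partners passed between MEL lines and organs, 12 had an unadjusted p under 0.05 (20.3% of all genes did), and 14 (28.0%) did not overlap, close to the 27.1% of all genes. The nearest was Id2, an inhibitor of bHLH factors, lower in all 3 MEL lines than in the organs (difference -3.21, SE 0.56, limma adjusted p = 0.0530).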

How the data were processed

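Members and lists were chosen with earlier results of these data known. The authors deposited log ratios, taken here as log2, for 15247 probes, with 15170 to 15210 values per array; the sources used here do not state the log base, background correction or normalization, and natural logarithms would change the 2-fold counts. The deposited column medians were -0.03 to 0.03. Precision is limited by having 1 array per sample, and signal over background was not analysed here. The platform annotation gave 1 symbol to 9600 probes, several to 214 and none to 5433, and only the first were used; 9492 were matched by gene number to RefSeq (GRCm38.p6), which changed 0 symbols. Signs were turned, arrays centred on their median and probes of a gene averaged, giving 7114 genes, 1810 of them with several probes, whose median SD between probes was 0.21 to 0.33 per array.

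Single arrays were compared as differences, with no test. The test of MEL lines against organs used R 4.3.3 with limma 3.58.1 (two-sided moderated test from lmFit and eBayes, Benjamini-Hochberg, threshold 0.05) on genes with at least 2 values in each class, a step tested on simulated data. The arrays labelled Heart and Melan A were left out of that fit because of their markers and added in alternatives. Alternatives were quantile normalization, no centring, the first probe per gene, genes on all 11 arrays, all arrays in 1 fit, robust eBayes, each array left out and, chosen after seeing the data, only probes with values on all arrays. Named with values were all members of families of 4 or fewer, the 5 of widest range in larger ones, members 2-fold apart (up to 8 per direction), those past the limma threshold or the 5 smallest p, and up to 6 partners. Of the marker lists not described elsewhere, the macrophage list (5 of 13 measured) had its highest median, 0.75, on the array labelled Lung. Klf17 and Klf11 were named outside this rule or by its last part after their values were seen.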

Additional observations from a re-analysis of the deposited data

Results flagged for a closer look

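Among the 4 arrays labelled as organs, 1 array stood far from the other 3 for 4 of the 36 members (11.1%), by Dixon's criterion, which marked 5.80% of 7057 genes; chance marks about 1 in 20 such groups. Foxm1 was 1.47 on the array labelled Heart, where the other 3 read -1.28 to -1.08. That array correlated across genes with D6_MEL at r = 0.917, and Foxm1 was 1.67 on D6_MEL. Gata4 was 1.05 on the array labelled Lung, with -0.98 to -0.84 on the others. Sox13 was 1.23 on the array labelled Liver, with 0.02 to 0.20 on the others. Tbx19 was -0.17 on the array labelled Liver, with 0.19 to 0.24 on the others, a gap smaller than 2-fold. These arrays are of different tissues by label, so they are no replicates of each other.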

How the results depend on the processing

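The comparison of MEL lines with organs was the least stable. Its 93 called genes became 0 to 659 when single arrays were left out, with 27 without HRAS_MEL, 0 without D6_MEL (1018 at an unadjusted limma p under 0.05), 0 without NRAS_MEL (912), 23 without Kidney and 659 without the array labelled Liver. Adding the array labelled Heart to the organs gave 0 (540 unadjusted), and adding those labelled Heart and Melan A to their labelled classes gave 0 (255). Called members ranged from 0 to 3 over the arrays left out, and were 0 (1 unadjusted) and 0 (0 unadjusted) with those arrays added. Quantile normalization, no centring, the first probe per gene, genes on all arrays, complete probes, all arrays in 1 fit and robust eBayes kept 1 called member, Foxm1. Several of these settings could hardly have lost it. Foxm1 has 1 probe with a value on every array, so its difference stayed at 2.46 under the 3 choices of probes or genes. The fit of all arrays gave each added array its own group and repeated the main result. Without centring, 1 member rather than 2 was 2-fold apart between the array labelled Heart and D6_MEL, since Foxj3 came to 0.99. Other differences that fell within 2-fold were Gata6 in NRAS_MEL minus D6_MEL (0.51 from the first probe and 0.36 from complete probes), Foxn3 in HRAS_MEL minus D6_MEL (0.99 after quantile normalization and 0.96 from the first probe), Klf4 in VA_MEF minus 3T3 (-0.78 after quantile normalization) and Gata4 for Kidney (-0.91 after quantile normalization). No value changed sign with its call. Only differences past the 2-fold limit in the main setting were followed in this way, and of their recomputed values 248 stayed past it and 7 did not. Crossings outward are not in these counts. After quantile normalization, 4 rather than 3 members were 2-fold apart in NRAS_MEL minus D6_MEL, and 12 rather than 11 in NRAS_MEL minus HRAS_MEL. Of the recomputed array values, 219 moved by less than the spread between probes, while 30 moved further. The causes of these changes were not tested. Many of the unchanged values could not have differed, so 248 and 219 include repeats of the main values. All 36 members had a value on every array, so the setting of genes on all arrays repeated the main differences. For members with 1 probe, the first probe and complete probes repeated the main value as well. No paired analysis was possible, since the labels match no line to an organ and each has 1 array.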
